A study of Homo sapiens with 8 samples.

Results

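The data described here compare SUDHL-4 lymphoma cells that overexpress FDX1 (FDX1-OE) with control cells of wild-type genotype (WT) after both had received 5 nM elesclomol (ES) for 48 h. Each group had 2 RNA-seq libraries, so the comparison rests on 4 of the 8 libraries of the series. The other 4 libraries came from the same genotypes in DMSO, the solvent, for the same time, and serve as the background. SUDHL-4 is a widely used cell line from a diffuse large B-cell lymphoma (DLBCL) of germinal-centre type. The genes described are those with 1 FPKM (reads scaled to the length of the gene and the size of the library) or more in at least 2 of the 4 ES libraries, which holds for 9743 of the 15597 genes listed. The labels do not say how FDX1 was overexpressed, whether the control cells carry an empty vector, whether the FDX1-OE cells are a clone, or whether the 2 libraries of a group came from separate cultures.

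FDX1 encodes ferredoxin 1, an iron-sulfur protein of the mitochondrial matrix that passes electrons to other enzymes and is needed for the lipoylation of the pyruvate dehydrogenase complex and its relatives. Elesclomol is a small molecule that binds copper and carries it into cells, and FDX1 is known as a gene on which its toxicity depends. Excess copper in mitochondria binds lipoylated proteins, destabilises iron-sulfur proteins and can kill the cell, a form of death called cuproptosis. The series set out to measure what raised FDX1 does to gene expression under the drug.

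The libraries held between 33387958 and 35833270 reads of the listed genes. For a gene 1 kilobase long, 3 reads were worth between 0.0837 and 0.0899 FPKM, which sets the detection limit as far as counting error goes. Genes that define B cells were present in all 8 libraries, among them MS4A1 (CD20) at 160.2 to 199 FPKM, CD79A at 651 to 909.9 FPKM and the germinal-centre marker MME (CD10) at 28 to 31.7 FPKM. In a principal component analysis of the 4 ES libraries the leading axis held 78% of the variance, with the control libraries at -9.10 and -14.94 and the FDX1-OE libraries at 12.87 and 11.17. No library was left out of the results below.

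FDX1 itself read 21.3 and 21.4 FPKM in the control libraries in ES and 82.5 and 84.8 FPKM in the FDX1-OE libraries in ES. In DMSO it read 25.6 and 22.2 FPKM in control cells and 72.4 and 69.9 FPKM in FDX1-OE cells. The groups did not overlap in either medium. In ES the difference was 1.92 on the log2 scale (SE 0.07, limma adjusted p = 1.09e-07), or 3.79 times. Ratios given as times, and all log2 changes, were computed from FPKM + 1, so for genes near 0 they come out smaller than the ratio of the FPKM values. A copy added to the cells and the cells' own gene are counted together in these values. The paralog FDX2 (-0.09, adjusted p = 0.481) and the reductase FDXR (0.02, adjusted p = 0.854), which passes electrons to ferredoxins, were not called.

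Under elesclomol, 13.9% of all tested genes were called higher in cells with raised FDX1. They included 29 of 32 tested interferon-stimulated genes, 8 of 11 genes of chemokines and their receptors and 17 of 25 NF-kB genes. Among them were also 21 of 28 genes of the ATF4 stress response and 15 of 32 cholesterol genes. Those called lower included 23 of 35 genes of ribosome biogenesis, 10 of 21 of glycolysis, 9 of 20 of the heat shock response and 8 of 32 of mitosis, against 7.97% of all tested genes. TCL1A, an activator of AKT kinase in germinal-centre B cells, was also called lower. Calls were made where limma, fitted to all 8 libraries, gave an adjusted p below 0.05. Of 9743 genes 1350 were called higher in FDX1-OE cells (13.9%) and 777 lower (7.97%), 21.8% in all, and 7616 were not called. Most differences were small: 1881 of the called genes (88.4%) changed by less than 1.5 times. A rise of 2 times or more was reached by 76 genes (0.78%) and a fall of that size by 0 genes, also at an unadjusted p below 0.05, while limma-voom on reads recovered from the values gave 160 and 5 genes. The genes called higher had a median level of 8.66 FPKM and those called lower a median of 40.3 FPKM, against 11.9 FPKM for all tested genes. The values of the FDX1-OE libraries in ES did not overlap those of the control libraries in 5962 genes (61.2%). In bulk RNA, more cells in a given state and more RNA per cell cannot be told apart.

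**Figure D1:**
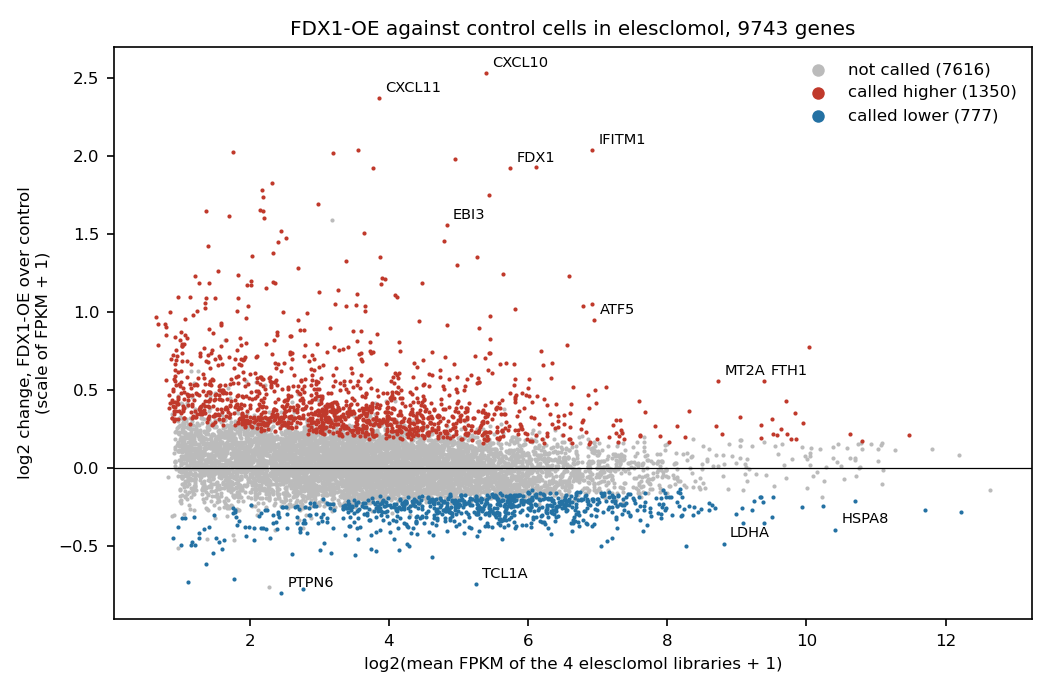
Each point is a gene tested between FDX1-OE and control cells in elesclomol (9743 genes), with the log2 of its mean FPKM + 1 over the 4 libraries on the horizontal axis and its log2 change on the vertical axis. Red points (1350) were called higher and blue points (777) lower. The rises reach 2.53 (CXCL10) while the falls reach -0.81 (PTPN6), and abundant genes appear more often among the falls.

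The split between rises and falls depended on scaling. With RLE (median ratio) scaling of the libraries 994 genes were called higher and 1286 lower, so that 43.6% of the calls were rises in place of 63.5%, since the median log2 change of all genes moved from 0.03 to -0.02. All 994 of those rises and all 777 falls of the unscaled values were among the calls made both ways, and the 76 large rises all stayed called. The filter let in 151 genes through the FDX1-OE libraries alone and 16 through the control libraries alone, and 105 of the former were called higher, which the filter favours. Of the 76 large rises 60 had 1 FPKM or more in at least 1 library of each group. Some of these, among them GBP1, IFNL2 and CCR7, reached it in only 1 control library. They passed the filter with the help of the FDX1-OE libraries, so it favours their rise too. Leaving out each ES library in turn gave 553 (without control ES replicate 2) to 1226 rises (without control ES replicate 1) and 232 to 613 falls for the same libraries. It gave 686 and 303 without FDX1-OE ES replicate 1 and 866 and 569 without FDX1-OE ES replicate 2. In all 4 of these fits 463 rises, 170 falls and 75 of the 76 large rises were called.

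The largest change belonged to a pair of chemokines that draw T cells and NK cells through the receptor CXCR3. CXCL10 read 13.3 and 9.76 FPKM in control cells in ES and 73.4 and 68.4 FPKM in FDX1-OE cells in ES. In DMSO it read 1.79 and 1.73 FPKM in control cells and 6.04 and 5.85 FPKM in FDX1-OE cells. Both FDX1-OE libraries in ES thus lay far above every other library, and the control ES libraries lay above all DMSO libraries. The difference in ES was 2.53 on the log2 scale (SE 0.11, adjusted p = 6.26e-07), or 5.79 times. CXCL11 read 3.71 and 3.67 FPKM against 23.2 and 23.4 FPKM in ES, a change of 2.37 (SE 0.12, adjusted p = 2.42e-06), and 0.642 to 2.78 FPKM in the DMSO libraries.

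CXCL10 and CXCL11 lie next to each other on chromosome 4, and their promoters are shown because they carry the same pair of short motifs. The sequences below are the 250 bases before the start of each gene, 5' to 3' on the gene's own strand, from RefSeq (GRCh38.p14), and lie outside the transcribed part of the gene. Capitals mark 2 motifs searched for on both strands, so a match can also read as the reverse complement: TTTCNNTTT, the core of the element bound by interferon-activated factors, and GGNNTTTCC, a short form of the NF-kB site. The first is at 220 to 212 bases before the start in CXCL10 (chr4:76023498-76023747, minus strand) and at 119 to 111 in CXCL11 (chr4:76036071-76036320, minus strand). The second follows at 176 to 168 and at 75 to 67 bases before the start.
CXCL10: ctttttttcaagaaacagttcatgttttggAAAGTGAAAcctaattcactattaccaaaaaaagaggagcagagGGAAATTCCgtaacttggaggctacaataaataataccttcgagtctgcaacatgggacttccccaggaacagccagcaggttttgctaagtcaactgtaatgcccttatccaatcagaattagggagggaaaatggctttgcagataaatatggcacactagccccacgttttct
CXCL11: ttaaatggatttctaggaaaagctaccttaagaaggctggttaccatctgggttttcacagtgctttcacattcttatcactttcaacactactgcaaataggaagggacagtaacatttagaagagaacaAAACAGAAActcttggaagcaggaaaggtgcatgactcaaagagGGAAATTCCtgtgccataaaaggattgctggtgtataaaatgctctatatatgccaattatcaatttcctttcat

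Other genes of the chemokine list rose as well, but not all of them. The log2 changes of its tested members ran from -0.46 to 2.53. Of 20 chemokines and receptors in the files 11 passed the filter, and 8 of these were called higher and 0 lower. The median log2 change of the 11 was 1.45 against 0.03 for all tested genes. CCL25, called higher, passed the filter only through the FDX1-OE libraries, which favours its rise. In a test limited to genes with a mean of at least 5 FPKM 4 were higher, and without FDX1-OE ES replicate 1, 7 were higher and 1 lower. CCL5, which attracts T cells and monocytes, read 12.6 and 10.6 FPKM in control cells and 46.2 and 50.7 FPKM in FDX1-OE cells in ES (1.98, SE 0.10, adjusted p = 2.42e-06). CCR7, the receptor that guides lymphocytes to lymph nodes, read 1.29 and 0.975 against 6.14 and 5.27 FPKM (1.65, adjusted p = 1.47e-05). CCL22, a ligand of CCR4, read 1.80 and 2.24 against 6.69 and 8.14 FPKM (1.48, adjusted p = 2.23e-05). CCL3, an inflammatory chemokine, stood apart in that its 4 DMSO libraries (1.54 to 1.76 FPKM) and its control libraries in ES (1.91 and 1.78 FPKM) were alike, while FDX1-OE cells in ES reached 6.71 and 6.80 FPKM (1.45, adjusted p = 3.21e-06). CCL3 has near-identical copies among which reads can be split, so its value is uncertain. CXCR4, the most abundant receptor of the list, had the smallest change among the 8 called members, from 84.3 and 81.6 to 96.7 and 95.8 FPKM (0.21, adjusted p = 0.0158).

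Interferons are secreted proteins that signal through receptors, JAK kinases and STAT factors to induce antiviral genes. RNA of the interferons themselves was low and higher in FDX1-OE cells. IFNL3, a type III interferon, read 3.28 and 2.07 FPKM in control cells in ES and 14.1 and 13.3 FPKM in FDX1-OE cells in ES (2.02, SE 0.13, adjusted p = 9.19e-06). In DMSO it read 0.127 and 0 FPKM in control cells and 2.21 and 2.32 FPKM in FDX1-OE cells. IFNB1, which encodes interferon beta, read 1.24 and 1.30 against 5.79 and 6.02 FPKM in ES (1.60, SE 0.10, adjusted p = 6.08e-06) and stayed under 1 FPKM in all 4 DMSO libraries. IFNL2 (1.74, adjusted p = 0.000691) and IFNL1 (1.38, adjusted p = 0.00293) were also called, but the lambda genes are close copies, so their separate values are uncertain. The promoter of IFNL3 (chr19:39245251-39245500, minus strand) is shown for its 2 matches to the interferon motif, at 176 to 168 and 70 to 62 bases before the start, and its NF-kB motif between them at 125 to 117.
IFNL3: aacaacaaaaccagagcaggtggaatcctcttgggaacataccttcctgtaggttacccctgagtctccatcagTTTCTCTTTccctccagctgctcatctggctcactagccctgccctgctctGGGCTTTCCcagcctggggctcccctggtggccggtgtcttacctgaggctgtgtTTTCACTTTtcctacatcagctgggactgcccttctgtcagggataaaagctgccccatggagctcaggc

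Behind the ligands the signalling chain moved less. Of 26 listed ligands, receptors and JAK-STAT genes 21 were tested, 8 were called higher and 1 lower, with a median log2 change of 0.19. The share called higher was 38.1%, against 13.9% of all tested genes. These counts and the median include the ligands. The 8 were IFNB1, IFNL1, IFNL2 and IFNL3 and, behind them, JAK2, STAT2, STAT5A and SOCS1. STAT2, a partner in the main interferon-activated factor, read 40.5 and 32.2 against 60.0 and 55.9 FPKM (0.67, adjusted p = 0.00179), and SOCS1, an inhibitor of JAK kinases that interferon induces, 35.6 and 28.4 against 55.2 and 51.8 FPKM (0.73, adjusted p = 0.00141). JAK2 rose by 0.56 (adjusted p = 0.00167). STAT6, the factor of interleukin-4 signalling, was the member called lower (-0.17, adjusted p = 0.0334), a call lost without any one of the 4 ES libraries.

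Of 10 interferon regulatory factors in the files 8 were tested and 3 were called, all higher: IRF5 (0.52, adjusted p = 0.00121), IRF1 (0.47, adjusted p = 0.0052) and IRF9 (0.38, adjusted p = 0.0146), a DNA-binding partner of STAT2. The count was 5 with limma-voom and 1 without control ES replicate 2, where IRF1 gave an adjusted p of 0.053. Sensors of foreign nucleic acid, which trigger interferon production, were tested for 15 of 18 genes, with 7 higher and 1 lower. DDX58 (RIG-I), a sensor of viral RNA in the cytosol, read 8.07 and 6.45 against 19.4 and 20.5 FPKM in ES (1.35, SE 0.14, adjusted p = 0.000163). IFIH1 (MDA5), its relative for long double-stranded RNA, read 11.6 and 8.58 against 22.7 and 22.4 FPKM (1.10, adjusted p = 0.00112). TLR7, a receptor for single-stranded RNA in endosomes, was near 0 in the control libraries in ES (0.149 and 0.0707 FPKM) and read 1.16 and 1.04 FPKM in FDX1-OE cells. It passed the filter only through the latter. TLR9, the endosomal receptor for DNA, went the other way, from 21.9 and 21.8 to 16.0 and 16.3 FPKM (-0.42, adjusted p = 0.000674), and 2 sensors were called lower without control ES replicate 1.

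Interferon-stimulated antiviral genes rose almost as a block. Of 37 genes in the files 32 were tested, and 29 of them (90.6%) were called higher and 0 lower, with a median log2 change of 0.95. Of the called genes IFIT5 and OAS3 passed the filter only through the FDX1-OE libraries, which favours their rise. Those not called were IFI44L (0.29, adjusted p = 0.0524), IFITM2 (0.16) and BST2 (0.03). IFITM1, a membrane protein that blocks virus entry, read 53.2 and 40.4 FPKM in control cells and 195 and 191 FPKM in FDX1-OE cells in ES (2.04, SE 0.20, adjusted p = 0.000124). Its DMSO libraries read 4.57 and 4.59 FPKM in control cells and 13.3 and 24.4 FPKM in FDX1-OE cells. IFI27 reached 114 and 103 FPKM from 34.6 and 22.2 FPKM (1.93, adjusted p = 0.000265). MX2, a GTPase that restricts viruses at the nuclear pore, read 20.5 FPKM in both FDX1-OE libraries against 5.37 and 4.08 FPKM (1.92, adjusted p = 0.000112). RSAD2 (viperin), an enzyme that makes a chain-terminating nucleotide, read 67.6 and 63.4 against 21.5 and 16.3 FPKM (1.75, adjusted p = 0.000263). ISG15, a ubiquitin-like protein and among the most abundant of the list, went from 887 and 675 to 1353 and 1297 FPKM (0.77, adjusted p = 0.00132). In each of these genes the control library numbered 2 was the lower of its pair and the groups did not overlap. Leaving out a library gave between 24 and 29 called members.

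The summed level of the 37 interferon-stimulated genes was 587 to 613 FPKM in control cells in DMSO, 903.6 to 1111 FPKM in FDX1-OE cells in DMSO, 1427 to 1800 FPKM in control cells in ES and 2887 to 2975 FPKM in FDX1-OE cells in ES. The sums of the 4 groups did not overlap. In DMSO 21 of these 32 genes were called higher in FDX1-OE cells, where 0.452% of all tested genes were. IFI6, for example, differed by 1.04 in ES (adjusted p = 0.00227) and by 1.70 in DMSO (adjusted p = 0.000878), and IFIT3 by 1.05 and 1.68. The difference between those differences was not called for either gene (adjusted p = 0.131 and 0.105).

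The promoter of IFITM1 (chr11:313790-314039, plus strand) shows the interferon motif close to the start, at 39 to 31 bases before it.
IFITM1: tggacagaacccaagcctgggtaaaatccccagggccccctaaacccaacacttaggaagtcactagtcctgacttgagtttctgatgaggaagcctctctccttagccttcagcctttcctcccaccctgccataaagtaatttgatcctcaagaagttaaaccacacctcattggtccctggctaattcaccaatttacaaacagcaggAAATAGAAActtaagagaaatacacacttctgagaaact
Promoter windows were matched by symbol for 8034 of the 9743 tested genes. The interferon motif was found in 19 of 24 windows of interferon-stimulated genes called higher (79.2%), in 26 of 63 windows of the genes that rose by 2 times or more (41.3%), in 8.8% of the windows of all genes called higher, in 6.5% of those called lower, in 6.2% of those of tested genes and in 9.3% of all 27305 windows. The NF-kB motif was found in 7 of 15 windows of called NF-kB targets (46.7%), in 20.6% of those of the large rises, in 6.2% of those of tested genes and in 5.5% of all windows. The 2 motifs share the letters TTTC, so matches to them can overlap, and a match is a description of the sequence only. ATF5, TNFSF10 and HMGCS1 also held the interferon motif, while INSIG1, TCL1A, HLA-B and ATF3 held none of the motifs searched in this window. Only the exact letters were searched, so a window without a match can still hold a variant of such a site.

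NF-kB is a family of transcription factors that B cells use downstream of CD40, TNF receptors and the B-cell receptor. Of 26 subunits and targets in the files 25 were tested, 17 of these (68%) were called higher and 0 lower, with a median log2 change of 0.48. In this list 1 tested gene reached 1 FPKM in the ES libraries of only 1 group. EBI3, a secreted cytokine subunit, read 17.0 and 10.4 FPKM in control cells in ES against 42.6 and 39.7 FPKM in FDX1-OE cells in ES (1.55, SE 0.16, adjusted p = 0.000139). It read between 1.41 and 2.07 FPKM in the 4 DMSO libraries, where the genotypes did not differ by the test (0.29, adjusted p = 0.773). TRAF1, an adaptor of TNF receptors, read 5.63 and 4.30 against 13.4 and 14.4 FPKM (1.33, adjusted p = 2.12e-05). BCL2A1, a survival protein of the BCL2 family, read 16.0 and 18.4 against 41.0 and 46.9 FPKM (1.30, adjusted p = 3.53e-05). The cytokine genes LTA (1.05) and TNF (1.04), the inhibitor genes TNFAIP3 (0.78) and NFKBIA (0.61), the surface receptor CD40 (0.60) and the subunits NFKB2 (0.58) and RELB (0.35) were called as well. The subunits RELA (-0.17), NFKB1 (0.17) and REL (0.11) were not. The promoter of EBI3 (chr19:4229273-4229522, plus strand) holds the NF-kB motif at 67 to 59 bases before the start.
EBI3: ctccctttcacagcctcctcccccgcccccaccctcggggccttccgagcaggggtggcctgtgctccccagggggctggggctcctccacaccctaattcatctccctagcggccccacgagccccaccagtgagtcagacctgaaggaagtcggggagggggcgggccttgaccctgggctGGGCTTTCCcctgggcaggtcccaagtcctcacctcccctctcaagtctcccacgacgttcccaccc

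**Figure D2:**
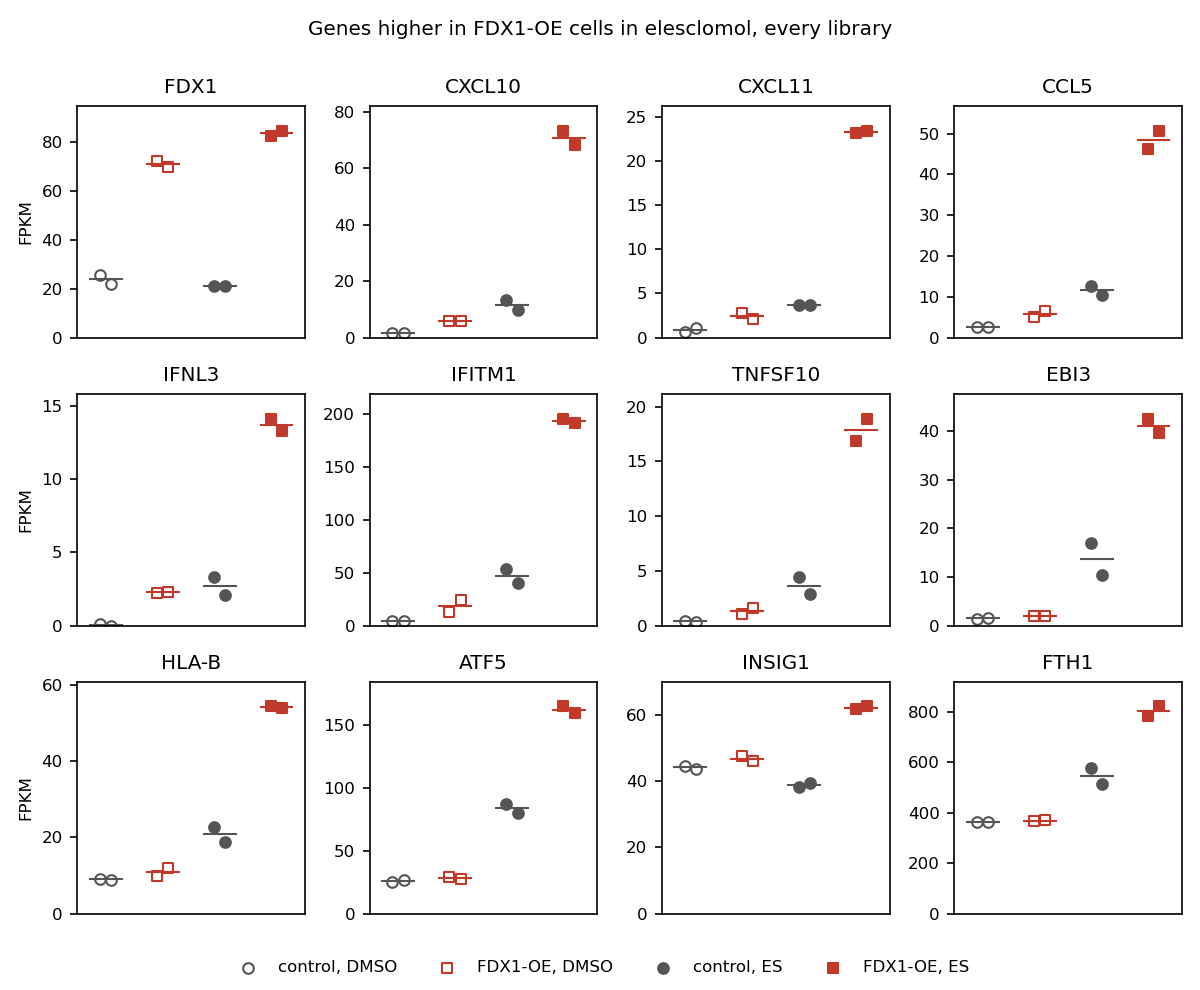
FPKM of 12 genes in each of the 8 libraries, with a line at the mean of each pair; circles are control cells and squares FDX1-OE cells, open in DMSO and filled in elesclomol (ES), and every vertical axis starts at 0. In each panel the filled red squares lie above all other points, and for CXCL10 they sit at 73.4 and 68.4 FPKM against 13.3 and 9.76 FPKM in the control ES libraries.

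Among ligands and receptors of the TNF family 11 of 24 genes were tested and 7 were called higher. TNFSF10, which encodes the death ligand TRAIL, read 4.43 and 2.88 FPKM in control cells in ES and 16.9 and 18.9 FPKM in FDX1-OE cells in ES (2.04, SE 0.15, adjusted p = 1.47e-05), and between 0.355 and 1.62 FPKM in the DMSO libraries. TNFRSF10B, a receptor for that ligand, rose by 0.29, from 4.46 and 4.04 to 5.21 and 5.63 FPKM (adjusted p = 0.0318). CD70, the ligand of CD27, read 2.13 and 1.52 against 4.01 and 3.75 FPKM (0.80, adjusted p = 0.0014). TNFRSF17 (BCMA), a survival receptor of plasma cells, read 10.6 and 8.00 against 14.8 and 17.5 FPKM (0.74, adjusted p = 0.00307). Without control ES replicate 2, 4 members of this list were called, and without control ES replicate 1, 1 was called lower.

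MHC class I molecules present peptides to CD8 T cells. HLA-B read 22.8 and 18.8 FPKM in control cells and 54.4 and 54.0 FPKM in FDX1-OE cells in ES (1.35, SE 0.10, adjusted p = 1.47e-05), and 8.84 to 12 FPKM in DMSO. HLA-C went from 30.9 and 30.2 to 57.2 and 52.7 FPKM (0.83, adjusted p = 6.02e-05), HLA-E by 0.79, the peptide transporter TAP1 by 0.54 and B2M, the shared light chain, by 0.28 (adjusted p = 0.0208). The class I heavy chains are similar in sequence, so reads can be split among them and single values are uncertain. In all 10 of 20 tested members were called higher, a count that was 6 without the filter on low values, 5 without control ES replicate 2 and 6 without FDX1-OE ES replicate 1. MHC class II, which presents to CD4 T cells, had 4 of 17 tested members called higher. They included HLA-DQA1, at 104 and 99.3 against 132 and 133 FPKM (0.38, adjusted p = 0.00138), and RFX5, a subunit of the factor that binds class II promoters (0.43, adjusted p = 0.000506). That count was 2 with RLE scaling and 2 without control ES replicate 2 or FDX1-OE ES replicate 2.

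The integrated stress response raises ATF4 protein when mitochondria, the endoplasmic reticulum (ER) or amino acid supply fail, and ATF4 then turns on genes of amino acid uptake and synthesis. Its targets were higher in FDX1-OE cells while the RNA of ATF4 was level, at 85.2 and 81.0 FPKM in control and 80.7 and 84.1 FPKM in FDX1-OE cells (-0.01, adjusted p = 0.904). Of 33 genes in the files 28 were tested, 21 of these (75%) were called higher and 0 lower, with a median log2 change of 0.38, while 1 was called lower without control ES replicate 2 or FDX1-OE ES replicate 1. ATF5, a transcription factor of the mitochondrial stress response, read 87.1 and 79.8 FPKM against 164 and 159 FPKM in ES (0.95, SE 0.06, adjusted p = 8.38e-06), and 25.3 to 29.1 FPKM in the DMSO libraries. CHAC1, which breaks down glutathione, read 1.52 and 1.60 against 4.51 and 4.01 FPKM (1.04, adjusted p = 4.33e-05). ATF3 passed the filter through the FDX1-OE libraries alone, at 2.65 and 3.09 FPKM against 0.770 and 0.864 FPKM (1.09, adjusted p = 0.000183). DDIT3 (CHOP), a pro-apoptotic factor, read 22.1 and 22.9 against 34.8 and 32.9 FPKM (0.57, adjusted p = 0.00214). The pseudokinase TRIB3 rose by 0.73, the phosphatase subunit PPP1R15A, which ends the response, by 0.89, and the amino acid enzymes PSAT1 and ASNS by 0.57 and 0.41. GDF15, a secreted stress signal, was not called (adjusted p = 0.164), and its FDX1-OE libraries disagreed, at 1.27 and 0.0825 FPKM against 1.15 and 1.34 FPKM in control cells.

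The unfolded protein response of the ER changed less. Of 22 tested genes 6 were called higher and 1 lower, with a median of 0.08. HERPUD1, which takes part in the removal of misfolded proteins, read 26.6 and 25.6 against 32.9 and 34.7 FPKM (0.36, adjusted p = 0.00231), and the sensor ERN1 rose from 0.945 and 0.676 to 1.66 and 1.58 FPKM (0.54, adjusted p = 0.00419), passing the filter only through the FDX1-OE libraries. The rises numbered 2 without control ES replicate 2 or FDX1-OE ES replicate 1 and 3 without FDX1-OE ES replicate 2, and the fall, of XBP1 (-0.24), was lost without any one of the ES libraries.

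Targets of NRF2, the factor that answers oxidative stress, were called higher in 8 of 23 tested cases and lower in 0, or 4 higher without control ES replicate 2 or without FDX1-OE ES replicate 1. SQSTM1 (p62), an autophagy receptor, read 55.0 and 51.4 against 89.2 and 90.6 FPKM (0.75, SE 0.05, adjusted p = 1.47e-05). SLC7A11, the cystine importer, read 1.03 and 1.06 against 1.98 and 2.12 FPKM (0.58, adjusted p = 0.00132). HMOX1, a common marker of this response, did not pass the filter. The ferritin chains, which store iron, are targets of NRF2 as well: FTH1 read 576 and 515 against 781 and 821 FPKM (0.56, SE 0.06, adjusted p = 0.000139), and FTL 811 and 787 against 1005 and 1037 FPKM (0.35, adjusted p = 0.000765). In DMSO the 4 libraries lay at 362 to 369.5 FPKM for FTH1. Of 13 tested genes of iron uptake and storage these 2 and SLC25A28, a mitochondrial iron carrier, were called higher (3 in all), against 5 with limma-voom.

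Elesclomol delivers copper, and metallothioneins bind copper and zinc. MT2A read 381 and 308 FPKM in control cells in ES and 487 and 519.5 FPKM in FDX1-OE cells in ES (0.55, SE 0.10, adjusted p = 0.00467), against 91.6 and 92.3 FPKM and 117 and 144 FPKM in DMSO. MT1X read 33.8 and 32.2 against 37.8 and 48.3 FPKM (0.36, adjusted p = 0.0385). With no filter on low values neither was called (adjusted p = 0.0523 and 0.149), MT1X was lost with RLE scaling (0.0594) and without control ES replicate 1 (0.0731), control ES replicate 2 (0.175) or FDX1-OE ES replicate 2 (0.247), and reads can be split among the metallothionein copies. Of 15 tested copper-handling genes only CCS, the chaperone that loads copper into superoxide dismutase, was called, at 24.3 and 22.4 against 32.1 and 33.1 FPKM (0.47, SE 0.06, adjusted p = 0.000866), also under each alternative, and 1 gene was called lower without FDX1-OE ES replicate 1. The copper importer SLC31A1 (-0.04, SE 0.10, adjusted p = 0.82) and the exporter ATP7A (0.03, SE 0.09, adjusted p = 0.876) were not called.

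Sterols are made by a pathway that the factor SREBP2 turns on when membrane cholesterol is low. Of 32 tested genes of this pathway and of other SREBP targets 15 (46.9%) were called higher and 1 lower, with a median log2 change of 0.20. INSIG1, the sterol-regulated anchor of SREBP in the ER, read 38.3 and 39.3 FPKM in control cells and 61.9 and 62.6 FPKM in FDX1-OE cells in ES (0.67, SE 0.05, adjusted p = 2.12e-05). In DMSO it read 44.8 and 43.8 FPKM against 47.7 and 46.0 FPKM (0.08, adjusted p = 0.869), so that control cells were lowest in ES and FDX1-OE cells highest. HMGCS1, an early enzyme of the pathway, read 18.8 and 18.5 against 28.3 and 29.1 FPKM (0.60, adjusted p = 0.000209). The pathway enzymes MVD and IDI1 rose by 0.53 and 0.45, and SREBF2, the gene of SREBP2, by 0.23 (adjusted p = 0.0182). ELOVL6, a fatty acid elongase, was the gene called lower (-0.29, adjusted p = 0.0398), a call lost without any one of the ES libraries, and 7 rises were called without control ES replicate 2. The sterol response element (TCACCCCAC or TCACCCCAT) was found in 1 of 11 promoter windows of the called genes and in 0.5% of all windows.

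The pathway in which FDX1 itself acts changed little at the RNA level. Of 17 tested lipoylation genes FDX1 was the gene called higher and DLAT and PDHA1 were called lower. DLAT, the lipoylated subunit of pyruvate dehydrogenase, read 47.1 and 49.3 FPKM against 40.3 and 38.7 FPKM in ES (-0.28, SE 0.06, adjusted p = 0.00909), and PDHA1 52.9 and 54.0 against 46.9 and 47.2 FPKM (-0.18, adjusted p = 0.0289). LIAS, the lipoate synthase, read 4.17 and 4.71 against 4.09 and 4.48 FPKM and was not called (-0.04, SE 0.09, adjusted p = 0.794). The fall of DLAT was lost without control ES replicate 2 (adjusted p = 0.072) and without FDX1-OE ES replicate 2 (0.0507). Without each of these the list had 0 falls, and it had 1 without either of the other ES libraries. In iron-sulfur cluster assembly 2 of 23 tested genes were higher and 2 lower, close to the background, and 0 rises were left without control ES replicate 2, FDX1-OE ES replicate 1 or FDX1-OE ES replicate 2. The TCA cycle had 4 falls among 18 tested genes and 0 rises. CS, citrate synthase, read 264 and 284 against 227 and 230.5 FPKM (-0.26, adjusted p = 0.00481), and MDH2, a malate dehydrogenase, 354 and 375 against 306 and 305 FPKM (-0.25, adjusted p = 0.00513). There was 1 fall without control ES replicate 2 and 2 without FDX1-OE ES replicate 1, and 2 rises were called without FDX1-OE ES replicate 2. Nuclear-encoded subunits of the respiratory chain fell in 4 of 57 tested cases (7.02%), near the 7.97% of all genes, a count that was 0 without control ES replicate 2, 1 without FDX1-OE ES replicate 1, 2 without the filter and 9 under RLE scaling. None of the 57 was called higher, but 3 were without control ES replicate 1.

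The list with the largest share of falls was ribosome biogenesis, the nucleolar work of making and assembling ribosomes. Of 35 tested genes 23 (65.7%) were called lower and 0 higher, with a median log2 change of -0.23. NCL, nucleolin, read 221 and 247 FPKM in control cells in ES and 189 and 173 FPKM in FDX1-OE cells in ES (-0.37, SE 0.06, adjusted p = 0.0026), against 288 to 305 FPKM in the DMSO libraries. WDR12, which acts in assembly of the large subunit, read 8.72 and 10.1 against 6.86 and 6.98 FPKM (-0.39, adjusted p = 0.00535; 0.0546 without control ES replicate 2). The count was 12 without control ES replicate 2 and 15 without FDX1-OE ES replicate 1. PA2G4, a growth-related protein found in nucleoli and outside this list, was among the 12 largest falls, at 339 and 383 against 252 and 255 FPKM (-0.51, SE 0.06, adjusted p = 0.000318). MYC, which drives ribosome biogenesis, read 137 and 155 against 122 and 132 FPKM and was not called (-0.20, adjusted p = 0.0754). It was called lower with RLE scaling (0.0307), limma-voom (0.0295) and the replicate block (0.0199). Its log2 change was -0.29 without control ES replicate 1 and -0.11 without control ES replicate 2.

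Chaperones of the heat shock response fell in 9 of 20 tested cases (45%) and rose in 2, with a median of -0.21. HSPA8, the constitutive HSP70 of the cytosol, read 1448 and 1653 FPKM against 1139 and 1211 FPKM in ES (-0.40, SE 0.06, adjusted p = 0.00227), and 2114 to 2239 FPKM in the DMSO libraries. CACYBP, a protein that works with ubiquitin ligases, read 85.5 and 89.2 against 63.0 and 70.1 FPKM (-0.39, adjusted p = 0.00427), and HSP90AB1 fell by 0.32. The rises were DNAJB1 (0.24, adjusted p = 0.0119) and the inducible HSPA1B (0.32, adjusted p = 0.0357), whose near-identical copy HSPA1A did not pass the filter, and 0 rises were called without control ES replicate 2 or FDX1-OE ES replicate 1.

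Glycolytic genes fell in 10 of 21 tested cases (47.6%) and rose in 2, or fell in 4 without control ES replicate 2. LDHA, which makes lactate, read 495 and 552 FPKM against 360.0 and 386 FPKM in ES (-0.49, SE 0.06, adjusted p = 0.00057), and 611 to 654 FPKM in DMSO. GAPDH, often used as a reference gene, read 5132 and 5333 against 4227 and 4343 FPKM (-0.29, adjusted p = 0.00166). ALDOC, an aldolase, rose instead, from 18.2 and 16.5 to 24.6 and 22.5 FPKM (0.42, adjusted p = 0.00523), a call lost without control ES replicate 2 (0.053).

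Mitotic genes fell in 8 of 32 tested cases and rose in 0. PLK1, a mitotic kinase, read 135 and 141 against 105 and 109 FPKM (-0.36, SE 0.05, adjusted p = 0.000866), and TPX2, a spindle protein, 105 and 118 against 84.8 and 89.5 FPKM (-0.35, adjusted p = 0.00373). The count was 15 with RLE scaling, 3 without control ES replicate 2, 4 without FDX1-OE ES replicate 1 and 5 without FDX1-OE ES replicate 2. S phase genes were called higher in 4 of 34 cases (11.8%), near the 13.9% of all genes, among them E2F1, a factor that starts S phase, at 105 and 88.6 against 137 and 131 FPKM (0.47, adjusted p = 0.00186). That count was 1 without the filter, under RLE scaling, in a fit to the 4 ES libraries and without FDX1-OE ES replicate 1, and 2 without control ES replicate 2 or FDX1-OE ES replicate 2, where leaving out the latter also gave 1 fall. Replication-dependent histone genes are near-identical copies, and their RNA largely lacks a poly(A) tail. Of 7 tested members of this list 3 were called higher, all of the H2B family. The count was 2 with a pseudocount of 0.1 or limma-voom, 1 at a mean of at least 5 FPKM and 0 without the filter. Outside the list H3C10 (1.26, adjusted p = 0.000209) and H2AC11 (1.20, adjusted p = 0.00542) also rose by 2 times or more. H3C10 passed the filter only through the FDX1-OE libraries.

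**Figure D3:**
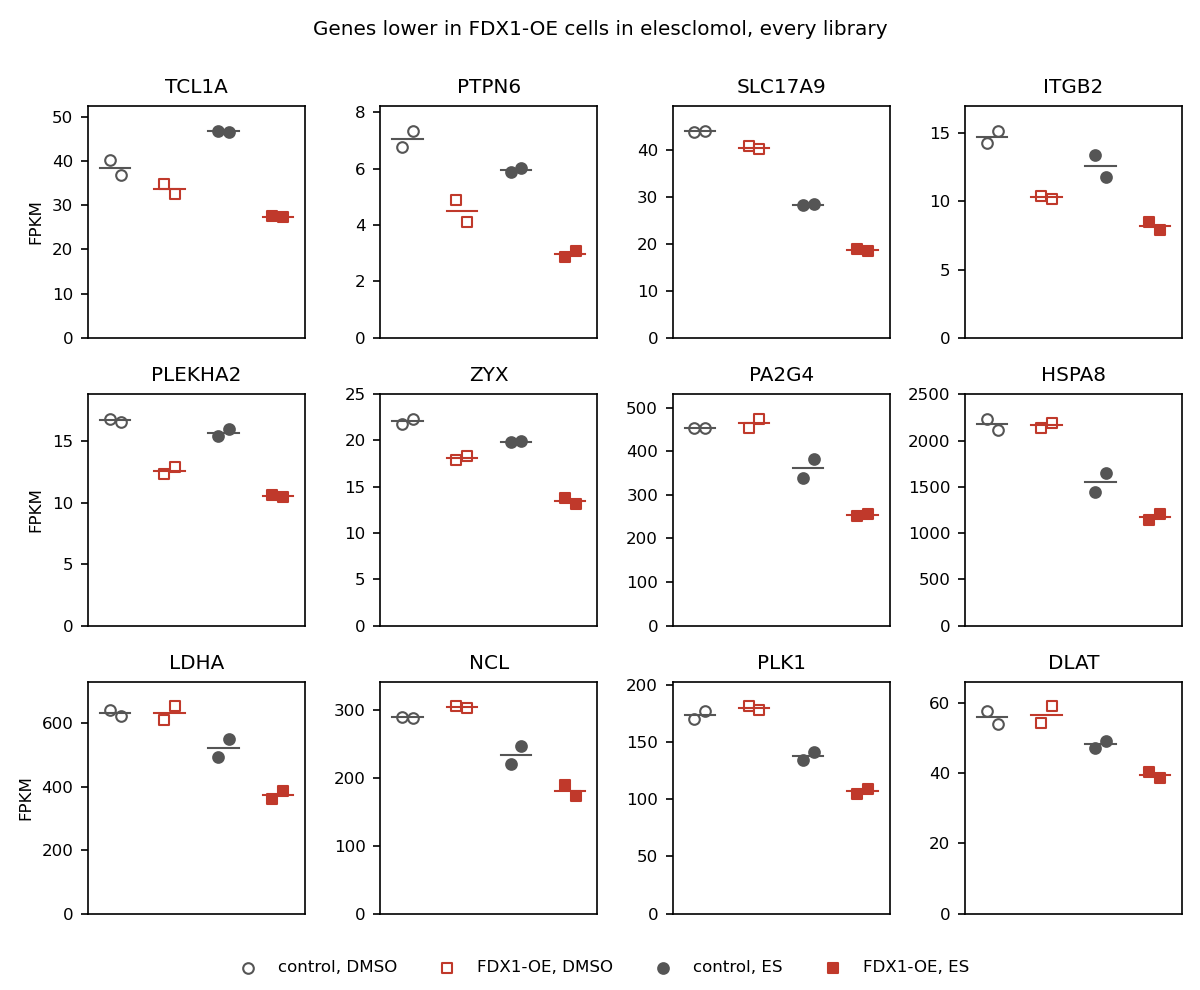
FPKM of 12 genes called lower in FDX1-OE cells in elesclomol, in each of the 8 libraries, drawn as in the plot of risen genes, with every vertical axis starting at 0. The filled red squares lie below all other points in each panel, and for TCL1A they sit at 27.6 and 27.4 FPKM against 46.9 and 46.6 FPKM in the control ES libraries.

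The 12 largest falls belonged to genes of various functions. PTPN6 (SHP-1), a phosphatase that restrains the B-cell receptor, read 5.89 and 6.02 FPKM in control cells in ES and 2.88 and 3.09 FPKM in FDX1-OE cells in ES (-0.81, SE 0.09, adjusted p = 0.000183). It was also lower in FDX1-OE cells in DMSO, at 4.88 and 4.09 against 6.75 and 7.35 FPKM (-0.56, adjusted p = 0.0144). TCL1A read 46.9 and 46.6 against 27.6 and 27.4 FPKM in ES (-0.75, SE 0.06, adjusted p = 3.28e-05), while its DMSO values of 40.2 and 36.8 against 34.8 and 32.6 FPKM did not differ by the test (-0.19, adjusted p = 0.407). EGR1, an immediate early gene, fell by 0.78 on the log2 scale, but its control libraries differed (5.96 and 9.29 FPKM) and the call (adjusted p = 0.0173) was lost without control ES replicate 2 (0.147), FDX1-OE ES replicate 1 (0.0826), FDX1-OE ES replicate 2 (0.0566) and the filter (0.112). The integrin chain ITGB2 read 13.4 and 11.8 against 8.50 and 7.93 FPKM in ES (-0.56, adjusted p = 0.00073) and was lower in DMSO too (-0.48, adjusted p = 0.0152), as was PLEKHA2, an adaptor that binds phosphoinositides (-0.53 in ES and -0.38 in DMSO). The others of the 12 largest falls were the nucleotide transporter SLC17A9 (-0.57), the vesicle GTPase RAB3A (-0.56), the transcriptional repressor GFI1B (-0.55), the receptor CD180 (-0.53), the focal adhesion protein ZYX (-0.53) and the exosome subunit EXOSC4 (-0.52), besides PA2G4. Of these RAB3A was not called without control ES replicate 2 (adjusted p = 0.0564) or without the filter (0.0535).

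As a whole the germinal-centre genes, which mark the cell of origin of this lymphoma, went both ways. Of 29 tested genes 8 were called higher and 4 lower, with a median log2 change of -0.01. LMO2, a transcriptional adaptor, read 7.74 and 7.20 FPKM in control cells and 13.9 FPKM in both FDX1-OE libraries in ES (0.81, SE 0.07, adjusted p = 5.91e-05), whereas in DMSO it read 8.23 and 7.35 against 5.83 and 5.92 FPKM (-0.35, adjusted p = 0.0631). CD38, an ectoenzyme of germinal-centre and plasma cells, read 23.2 and 22.4 against 36.0 and 37.4 FPKM (0.66, adjusted p = 5.17e-05). BCL6, the master repressor of the germinal centre, read 61.8 and 65.0 against 55.8 and 53.7 FPKM (-0.21, adjusted p = 0.048), a call lost in 6 of the 11 alternatives. Counts of 5 higher and 2 lower were found without control ES replicate 2 or FDX1-OE ES replicate 1, and 2 lower without the filter.

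B-cell receptor genes were called higher in 7 of 22 tested cases and lower in 3. The adaptor BLNK rose by 0.44 (adjusted p = 0.00636), and PTPN6, described above, was among the falls. Without control ES replicate 2 the counts were 2 and 1, without FDX1-OE ES replicate 1 they were 4 and 1, and with RLE scaling 4 members were higher. Plasma-cell genes were higher in 5 of 11 tested cases and lower in 3. TNFRSF17 and CD38 rose, while XBP1 (-0.24) and JCHAIN (-0.35), genes of antibody secretion, fell, and the regulators PRDM1 and IRF4 did not pass the filter. Without control ES replicate 2, 2 were higher and 1 lower, without FDX1-OE ES replicate 1, 3 and 0, and without control ES replicate 1 or FDX1-OE ES replicate 2, 1 was lower; without the filter 0 were lower.

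Genes of cell death were called higher on several branches, where 13.9% of all tested genes were. The median log2 change was 0.16 in the BCL2 family. It was 0.14 in the list of caspases, gasdermins and necroptosis, where RLE scaling gave 4 rises. Of 17 tested BCL2 family genes 7 were called higher and 0 lower, or 1 lower without FDX1-OE ES replicate 2. These were the survival genes BCL2A1 (1.30), BCL2L1 (0.34) and MCL1 (0.25) and the pro-apoptotic genes PMAIP1 (NOXA), BMF (0.48), BCL2L11 (BIM, 0.42) and HRK (0.38), which passed the filter only through the FDX1-OE libraries. PMAIP1 read 31.7 and 29.8 FPKM in control and 49.6 and 51.7 FPKM in FDX1-OE cells in ES (0.70, SE 0.06, adjusted p = 3.72e-05), and 22.2 to 25.6 FPKM in the DMSO libraries. Of 13 tested genes of caspases, gasdermins and necroptosis 6 were higher, or 3 without FDX1-OE ES replicate 1. ZBP1, a sensor of Z-form nucleic acid, read 1.98 and 1.30 against 3.94 and 4.24 FPKM (0.96, adjusted p = 0.000496) and was at most 0.229 FPKM in DMSO. GSDME, a pore-forming protein, read 1.82 and 1.47 against 3.23 and 3.33 FPKM (0.69, adjusted p = 0.000893), and CASP8 rose by 0.27 (adjusted p = 0.0374).

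Targets of p53 were called higher in 9 of 23 tested cases and lower in 2. In this list 1 tested gene reached 1 FPKM in the ES libraries of only 1 group. CDKN1A (p21), a cell cycle inhibitor, read 0.813 and 1.11 against 2.53 and 2.60 FPKM (0.87, SE 0.10, adjusted p = 0.000309), and SESN2, a stress-induced inhibitor of mTORC1 that ATF4 also induces, 29.0 and 26.2 against 48.8 and 43.5 FPKM (0.72, adjusted p = 0.000541). MDM2, a p53 target and inhibitor, was lower instead (-0.20, adjusted p = 0.0341). The falls numbered 1 without control ES replicate 2 and 0 without any other ES library. Of 16 tested immediate early and AP-1 genes 7 rose and 2 fell, with 4 rises without the filter or without FDX1-OE ES replicate 2, and 1 fall without any of the ES libraries but control ES replicate 1. Of 23 lysosome and autophagy genes 4 rose and 3 fell, near the background, with 2 rises and 1 fall without control ES replicate 2 or FDX1-OE ES replicate 2.

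Markers of other cell types were checked in the same libraries. Of 9 myeloid markers 2 were tested and both were called higher: CD68, a protein of endosomes and lysosomes, at 5.90 and 5.17 against 18.0 and 17.1 FPKM (1.51, SE 0.08, adjusted p = 3.08e-06), and FCER1G, a signalling chain of Fc receptors, at 9.96 and 6.69 against 18.3 and 22.3 FPKM (1.21, adjusted p = 0.000589). The summed level of the 9 was 12.3 to 16.7 FPKM in control cells and 36.8 to 39.8 FPKM in FDX1-OE cells in ES, and 4.08 to 8.22 FPKM in DMSO. The other 7 (CD14, CD33, CSF1R, ITGAM, LYZ, MPO and AIF1) were at or below 0.28 FPKM in every ES library, and MPO and AIF1 were at 0 in 3 of the 4. Of 8 T and NK cell markers 2 were tested and 0 called, also by limma-voom and at an unadjusted p below 0.05, with CD3E at 3.91 to 8.32 FPKM and CD3D and CD3G at most 0.035 FPKM over the 8 libraries. Of 12 epithelial and stromal markers DCN was tested and not called, at 9.15 to 15.4 FPKM over the 8 libraries, and PECAM1, which passed the filter only through the FDX1-OE libraries, was called (0.32, adjusted p = 0.0444), a call lost without any one of the ES libraries. The part of these genes in the other results was not tested.

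**Figure D4:**
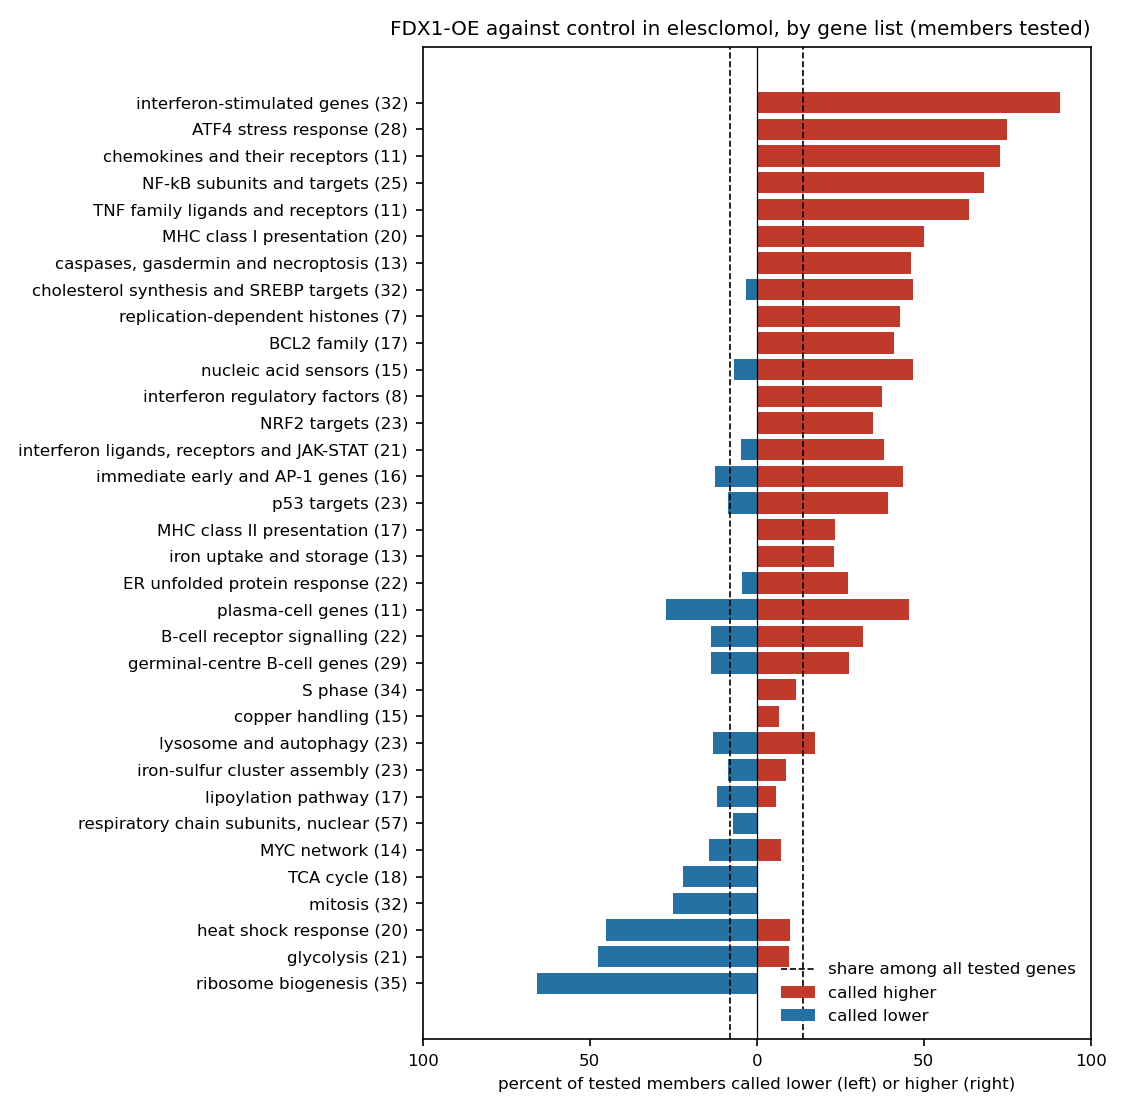
Share of the tested members of each gene list (metallothioneins, with 4 tested members, and the marker lists are not drawn) called higher (red, to the right) or lower (blue, to the left) in FDX1-OE cells in elesclomol, in percent, with the number tested in brackets; the dashed lines give the shares among all 9743 tested genes, 13.9% higher and 7.97% lower. Interferon-stimulated genes reach 90.6% higher at the top and ribosome biogenesis 65.7% lower at the bottom, while copper handling, the lipoylation pathway and the respiratory chain stay near or under the dashed lines.

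Across the 35 lists other than those of cell type markers, 16 had 0 members called lower and 4 had 0 called higher. In the former 6 members were lower at an unadjusted p below 0.05 and limma-voom called 2 lower. RLE scaling called 3 lower among S phase genes and 1 each among interferon regulatory factors, NF-kB, TNF family and NRF2 genes. In the latter 8 members were higher at that p and limma-voom called 2 higher.

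The same genotypes in DMSO, which share no library with the ES comparison, differed much less. There 44 genes were called higher in FDX1-OE cells (0.452%) and 9 lower (0.0924%). Of the 44 rises 42 were also called higher in ES, which is 95.5% of the DMSO rises and 3.11% of the ES rises, and 6 of the 9 falls were called lower in ES. Across the 9743 genes, which are not independent replicates, the log2 changes of the 2 comparisons correlated with a Pearson r of 0.35 and a Spearman rho of 0.14. Of the 76 genes that rose by 2 times or more in ES 24 were called higher in DMSO, 33 were below 1 FPKM in all 4 DMSO libraries and 34 were at 1 FPKM or more in all 8 libraries.

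The difference of the effects, FDX1-OE over control in ES minus the same in DMSO, was tested in the same fit. It was called for 342 genes with a positive sign (3.51%) and 107 with a negative sign (1.1%). By list it was positive for 14 of 25 NF-kB genes, 14 of 28 ATF4 targets and 7 of 11 genes of chemokines and their receptors. It was also positive for 6 of 32 cholesterol genes and for 4 of 32 interferon-stimulated genes. It was negative for 6 of 35 ribosome biogenesis genes. The count of 449 called genes in either direction (4.61%) was 121 without control ES replicate 2, 143 without FDX1-OE ES replicate 1, 241 without FDX1-OE ES replicate 2 and 668 without control ES replicate 1, and 251 with a pseudocount of 0.1 and 191 with no filter.

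**Figure D5:**
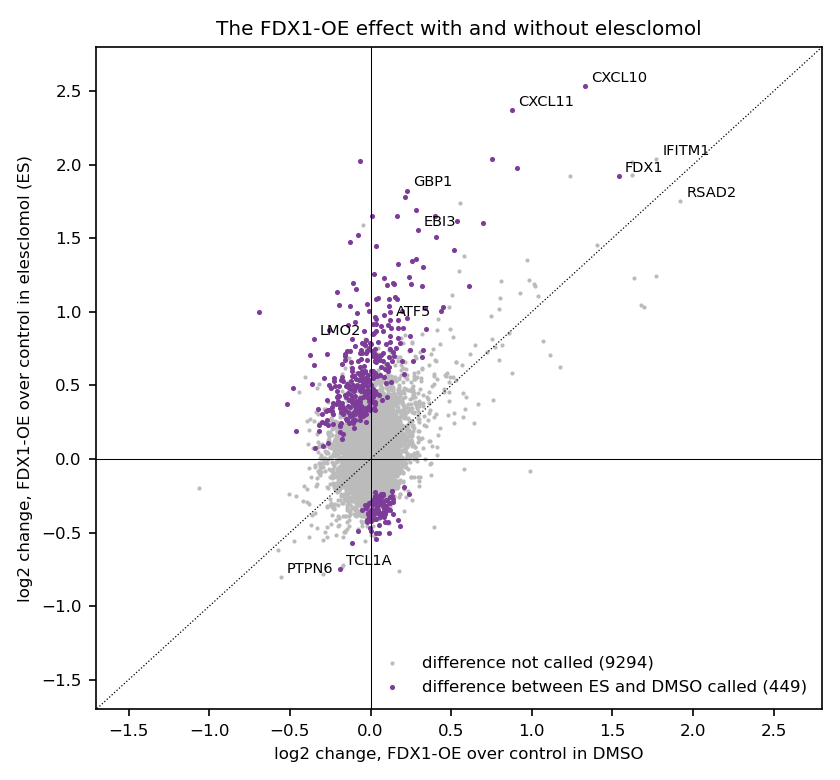
Log2 change between FDX1-OE and control cells in DMSO (horizontal) and in elesclomol (vertical) for each of 9743 genes; the dotted line marks equal change and the 449 purple genes have a called difference between the media. IFITM1 and RSAD2 lie near the line of equal change, while CXCL10, CXCL11 and EBI3 lie above it and TCL1A below.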

How the data were processed

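Gene expression was measured by RNA-seq in 8 libraries of SUDHL-4 cells, 2 for each combination of genotype and medium, grouped by the genotype and treatment labels. The deposited values are FPKM per gene, a unit read from the values themselves, and the submitters' processing notes name HISAT2, HTSeq, R 3.2.0 and hg19 without giving their roles. The authors' normalization was kept as deposited.

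FPKM divides by library total, so a few very abundant genes can shift all others. Values of all 15597 genes were whole multiples of 1 read within a tolerance of 0.02 reads, which gave the reads of each library. Genes with 1 FPKM or more in at least 2 of the 4 ES libraries were tested on log2(FPKM + 1) with limma 3.58.1 in R 4.3.3, as 4 group means with an intensity trend, two-sided, with Benjamini-Hochberg adjustment over all tested genes. Every adjusted p given comes from this fit or from a named alternative. The same fit gave the DMSO comparison and the difference of both effects. The code was tested on simulated data. Exact permutation of 2 against 2 libraries gives no p below 0.333, so none is reported. The labels do not name separate cultures, so the spread behind each p-value is that among the libraries at hand and may be technical.

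Named genes were the 12 largest rises and falls with a mean of 5 FPKM or more in the higher group and groups that do not overlap, the 2 largest called changes of each of 38 lists, and a set of key genes. The members, lists and key genes were chosen with earlier results of these data known, and other list members named were chosen after their values were seen. The alternatives were a pseudocount of 0.1, no filter, a mean of at least 5 FPKM, RLE scaling, a fit to the ES libraries, a replicate block, limma-voom on the recovered reads, and leaving out each ES library. Promoter windows come from RefSeq (GRCh38.p14), not from the build the notes name. Some named genes and list members are not reported here.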

Additional observations from a re-analysis of the deposited data

Results flagged for a closer look

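The effect of FDX1 overexpression differed between elesclomol and DMSO, by limma's test of the difference itself, for 47 of the named genes, 37 with a positive and 10 with a negative value. The difference shares the ES libraries with the comparison that named these genes, so it is no independent evidence of their change. Values are log2 differences of the effects, ES minus DMSO.

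Among immune genes the value was 1.20 for CXCL10, 1.496 for CXCL11, 1.07 for CCL5, 1.29 for TNFSF10, 1.60 for GBP1 (an interferon-induced GTPase), 1.57 for PLAAT2, 1.26 for EBI3, 1.15 for TRAF1, 0.98 for BCL2A1, 0.73 for ZBP1, 1.09 for HLA-B, 0.66 for HLA-C, 0.49 for HLA-DQA1 and 0.38 for RFX5. CD68 gave 1.10. The widest of these immune values was that of GBP1, which read 6.41 and 7.07 FPKM in FDX1-OE cells in ES against 1.46 and 0.941 FPKM in control cells. In DMSO it read 0.289 and 0.304 against 0.121 and 0.0978 FPKM. Its rank depends on the use of FPKM + 1, and on plain ratios of FPKM CXCL11 lay above it. The positive sign for ZBP1 depends on the same choice. In DMSO its mean was 0.19 FPKM in FDX1-OE cells against 0.0166 FPKM in control cells. In ES the means were 4.09 and 1.64 FPKM. On plain ratios of FPKM the ZBP1 effect was thus larger in DMSO, where no library held more than 26 of its reads.

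Stress genes gave 0.83 for ATF5, 1.05 for ATF3, 1.16 for CHAC1, 0.51 for DDIT3, 0.64 for SESN2, 0.37 for HERPUD1, 0.72 for SQSTM1, 0.56 for SLC7A11, 0.54 for FTH1, 0.40 for FTL, 0.53 for CCS, 0.83 for CDKN1A, 0.56 for PMAIP1 and 0.66 for GSDME. The sterol genes INSIG1 and HMGCS1 gave 0.59 and 0.63. The B-cell genes LMO2 and CD38 gave 1.17 and 0.40, E2F1 gave 0.48, and the histone genes H2BC5 and H2BC11, whose reads can be shared with close copies, gave 0.86 and 1.08. FDX1 itself gave 0.38, with an adjusted p of 0.0444.

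Negative values were found for TCL1A (-0.56), SLC17A9 (-0.45), GFI1B (-0.58), PA2G4 (-0.54), NCL (-0.44), LDHA (-0.49), MDH2 (-0.28), HSPA8 (-0.39), PLK1 (-0.41) and TPX2 (-0.40). For LMO2 the genotypes stood in opposite order in the 2 media.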

How the results depend on the processing

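Scaling set the balance of calls: RLE scaling gave 1286 falls in place of 777. The count of rises stayed within 1.5 times under every alternative that kept all libraries, from 902 (mean of at least 5 FPKM, with fewer genes tested) to 1614 (limma-voom). Leaving out 1 ES library gave 553 to 1226 rises, 232 to 613 falls and 121 to 668 genes whose effect differed between media. That last count, 449, was 251 with a pseudocount of 0.1 and 191 without the filter, where more genes were tested. The cause of the other shifts was not tested. The replicate block gave 1393 rises, 817 falls and 566 differences between media. Same-numbered libraries had correlations of -0.195 to 0.179 between groups. With 2 libraries a group these cannot decide whether the replicate numbers pair the samples. Of 84 called named genes 66 kept direction and call under all 11 alternatives that could be applied to them, and 18 lost the call in at least 1, most often without control ES replicate 2. No called named gene changed sign. Of those not called, FDXR, SLC31A1, ATP7A, LIAS and ATF4 did, between -0.16 and 0.09 on the log2 scale. With 2 libraries a group, small changes near the threshold are the least certain.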

Other observations

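Of the 76 genes that rose by 2 times or more in FDX1-OE cells in elesclomol 37 stood in no gene list, and those named here were chosen after their values were seen. Several are known to be induced by interferon. UBA7 and UBE2L6, the activating and conjugating enzymes of ISG15, differed by 1.04 (limma adjusted p = 0.000102) and 1.02 (adjusted p = 0.00251), and UBE2L6 read 76.5 and 72.0 FPKM against 38.8 and 33.6 FPKM. LGALS9, galectin-9, read 31.1 and 28.7 against 13.6 and 11.6 FPKM (1.19, adjusted p = 0.00143). MOV10, an RNA helicase with antiviral roles, read 5.34 and 4.42 against 1.35 and 1.22 FPKM (1.36, adjusted p = 5.54e-05), and the apolipoproteins APOL3 and APOL1 rose by 1.17 and 1.09. IL2RA, the alpha chain of the interleukin-2 receptor, read 4.55 and 3.19 against 1.18 and 1.36 FPKM (1.09, adjusted p = 0.000318).

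Others belong to groups outside the lists. CSAG1 and CSAG3, close copies of a gene family normally seen in testis and tumours, read 4.04 and 4.81 against 0.555 and 0.137 FPKM (2.02, adjusted p = 1.01e-05) and 5.88 and 5.95 against 0.999 and 1.43 FPKM (1.65, adjusted p = 3.82e-05), and reads can be split between them. CSAG1 passed the filter only through the FDX1-OE libraries, as did SPRR2D and APOL1, so that their rise is favoured by the filter. The epidermal genes SPRR2D (1.62) and SPRR2A (1.18), also close copies, were higher as well. INHBE, an inhibin subunit, read 6.35 and 5.64 against 2.38 and 1.76 FPKM (1.19, adjusted p = 6.02e-05). DHRS2, a dehydrogenase, read 12.9 and 11.5 against 5.48 and 4.55 FPKM in ES and at most 0.851 FPKM in DMSO (1.14, adjusted p = 9.98e-05). LRRN3, a neuronal leucine-rich repeat protein, rose in both media, by 1.18 in ES and 0.61 in DMSO (adjusted p = 0.0195).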
